A study of Homo sapiens with 9 samples.

Results

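The aryl hydrocarbon receptor gene, AHR, lies in band 7p21.1, and the data described here are the ChIP-seq peaks deposited for 1 Mb around it, from 17000000 to 18000000 of chromosome 7 in build hg18. All peaks that touched this window were taken from the 5 peak lists, which gave 146 of 125904 peaks. The window was chosen from the density of its peaks in the H3122 lists and from a region in it that scored at the top of the NKX2-1 and FOXA1 lists. Those densities and scores are therefore given below as a description, and no test was run on them. AHR was taken as the interval from 17305000 to 17352000, which is rounded to 1 kb. The window was divided into the 305 kb before the gene, the 47 kb of the gene and the 648 kb after it.

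NKX2-1 was precipitated from the lung adenocarcinoma lines NCI-H1819, NCI-H2087 and NCI-H3122, all of which carry an amplification of the NKX2-1 gene per the labels, and FOXA1 was precipitated from NCI-H3122 alone. The cells grew in serum-containing RPMI medium, and the labels name no treatment. H3122 had 2 NKX2-1 lists, called replicates 1 and 2, and the labels do not tie them to separate cultures; the spread between them may be technical only. The other groups had 1 list each, so no difference between lines or factors has a replicate check. A score is the authors' own value for a peak, and peaks were ranked by score only within a list. The highest and lowest scores of the lists were set side by side. The lists held 42437 FOXA1 peaks and, for NKX2-1, 7469 and 48071 in H3122 replicates 1 and 2, 14441 in H2087 and 13486 in H1819. The lowest score was 50 in replicate 1, the shortest list, and between 60 and 60.02 in each other list. The lists may therefore not share a calling threshold, and their peak counts carry that limit. No source used here gives read depth, so a missing peak in a short list cannot be read as missing binding.

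AHR is a ligand-activated transcription factor of the bHLH-PAS family. It waits in the cytoplasm with chaperones and, once it binds a ligand such as a polycyclic hydrocarbon of tobacco smoke, enters the nucleus, pairs with ARNT and switches on detoxifying enzymes such as CYP1A1. NKX2-1 is the homeodomain factor that maintains the identity of distal lung epithelium, and FOXA1 is a forkhead factor that can bind closed chromatin in endodermal tissues. RefSeq's table for GRCh38.p14 lists AGR3 and, beyond it, AGR2 as the protein-coding genes on the side of the start of AHR. SNX13, which encodes a sorting nexin, is the first on the other side, and 4 long non-coding RNA genes lie between AHR and SNX13. These names give the order of genes only, and no peak was assigned to any of them.

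NKX2-1 peaks of the 3 lines met at the start of AHR, and FOXA1 had no peak there. The stretch of promoter that RefSeq places directly before this start is shown as the sequence context of the place where they met. It is the 250 bases at chr7:17298402-17298651 on the plus strand of GRCh38.p14, a build other than that of the peaks, and positions were not carried from one build to the other. Whether the peaks cover any of its bases was therefore not determined.

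AHR promoter: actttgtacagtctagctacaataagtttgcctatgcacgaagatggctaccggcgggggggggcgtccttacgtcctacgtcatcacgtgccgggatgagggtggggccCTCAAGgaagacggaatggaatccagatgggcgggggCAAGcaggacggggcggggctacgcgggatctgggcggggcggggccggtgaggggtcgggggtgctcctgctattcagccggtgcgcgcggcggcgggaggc

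Capitals mark matches to CAAG, the core that NKX2-1 recognises, and to its longer form CTCAAG, both searched on both strands. CAAG occurred 2 times, beginning 138 and 103 bases before the gene's start. At least 1 match was found in 80.9% of 35116 promoters of this length, and at least 2 in 52.1%. The first match was part of a CTCAAG, which 10.4% of the promoters held. The forkhead words TGTTTAC and TGTTTGC, held by 2.98% and 3.23% of promoters, were not among these 250 bases. The promoter was 66.8% G and C, against a median of 58.0%. These matches describe letters and do not show that a factor binds them.

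At this start, the merged region of the peaks ran from 17304228 to 17305117 on chromosome 7 in hg18. H3122 replicate 2 had a peak from 17304303 to 17305117 with a score of 186.88, at percentile 62.9 of its list. The H1819 peak, from 17304409 to 17304783, scored 74.79 and stood at percentile 20.1. The H2087 peak, from 17304228 to 17304737, scored 119.37 and stood at percentile 40.5. H3122 replicate 1 had no peak in the gene or in the 10 kb before it. So the region had a peak in each line, but in 1 of the 2 H3122 lists, and the H1819 and H2087 peaks scored below the medians of their lists, 124.13 and 149.68. The H1819 and H2087 peaks ended 217 and 263 bp before the rounded gene start. The replicate 2 peak reached 117 bp past it, so whether any of them lies inside the gene depends on that rounding.

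**Figure D1:**
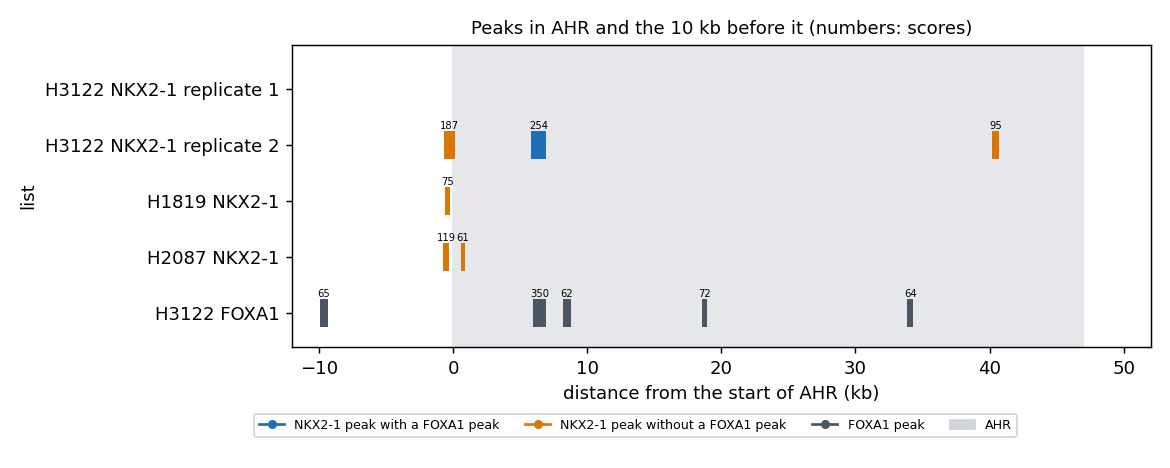
Peaks of the 5 lists in AHR and the 10 kb before it, drawn to scale as bars with their scores rounded to whole numbers (x axis, distance from the gene's start in kb; y axis, list; shaded, the gene). NKX2-1 peaks of replicate 2, H1819 and H2087 stack at the start without a FOXA1 peak, and the only NKX2-1 peak in blue, 5.84 kb inside the gene, lies on a FOXA1 peak.

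Inside the gene NKX2-1 and FOXA1 met at 1 place. H3122 replicate 2 had a peak from 17310841 to 17311913, 5.84 kb past the start, with a score of 254.12. FOXA1 had a peak from 17310949 to 17311922 with a score of 349.65, at percentile 79.2 of its list, the highest of its 4 peaks in the gene. The other 3 FOXA1 peaks began 8.21, 18.5 and 33.9 kb past the start and scored 61.54, 72.21 and 64.09, between percentiles 2.36 and 14.9, and none had an NKX2-1 peak in any list. Replicate 2 had a further peak 40.2 kb past the start with a score of 94.97 and no FOXA1 peak. H2087 had a peak from 17305604 to 17305895 with a score of 60.96, near the lowest score of its list, and no other list had a peak there. The only peak in the 10 kb before the start, outside the region at the start, was a FOXA1 peak of score 65.43, whose end lay 9.34 kb before the gene.

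Counting any overlap, the density of replicate 2 peaks in the gene lay between those of the stretches on either side. There were 3 peaks in the gene, 21 before it and 40 after it, or 6.38, 6.89 and 6.17 per 100 kb. This order depends on where the gene is drawn. With peaks assigned by midpoint the gene held 2, and extended by 10 kb it held 3. Either way its density would fall below both. FOXA1 had 4, 20 and 40, or 8.51, 6.56 and 6.17 per 100 kb. H2087 had 1, 4 and 3 peaks, H1819 had 0, 3 and 3, and replicate 1 had 0, 1 and 3. At the start of AHR the H1819 and H2087 peaks counted as before the gene, and the overlapping replicate 2 peak as in it. The gene makes up 4.7% of the window's length, and its share of the window's peaks was 4.69% in replicate 2, 6.25% for FOXA1 and, from 1 peak of 8, 12.5% in H2087.

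Beyond the gene, 1 region had a peak in every list. It ran from 17563802 to 17566237, beginning 212 kb past the end of AHR. Its scores were 263.24 and 3209.9 in the H3122 NKX2-1 replicates, 686.65 in H1819, 323.79 in H2087 and 3100 for FOXA1. Among the peaks of the window it ranked first in all lists but that of H2087, where it ranked second. Its percentile among all peaks of a list was 98.0 in replicate 1, 94.6 in H1819, 75.8 in H2087 and 99.8 for FOXA1. In replicate 2 it was above 99.9. The highest scores of the replicate 2, H1819, H2087 and FOXA1 lists lay close together, from 3200.86 to 3217.15. The scores of 3209.9 and 3100 are near these, so they may be capped and their order may carry little. In the long H3122 lists the region was a wide peak of 2414 bp for NKX2-1 and 2434 bp for FOXA1, against medians of 656 and 569 bp over those lists. The peaks of replicate 1, H1819 and H2087 inside it were 448, 927 and 797 bp wide and all fell between 17564914 and 17565840. Less than 1 kb further on, replicate 2 had its peak from 17566520 to 17567722 with a score of 1076.2, FOXA1 one with a score of 577.52 and H2087 one with a score of 69.95.

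**Figure D2:**
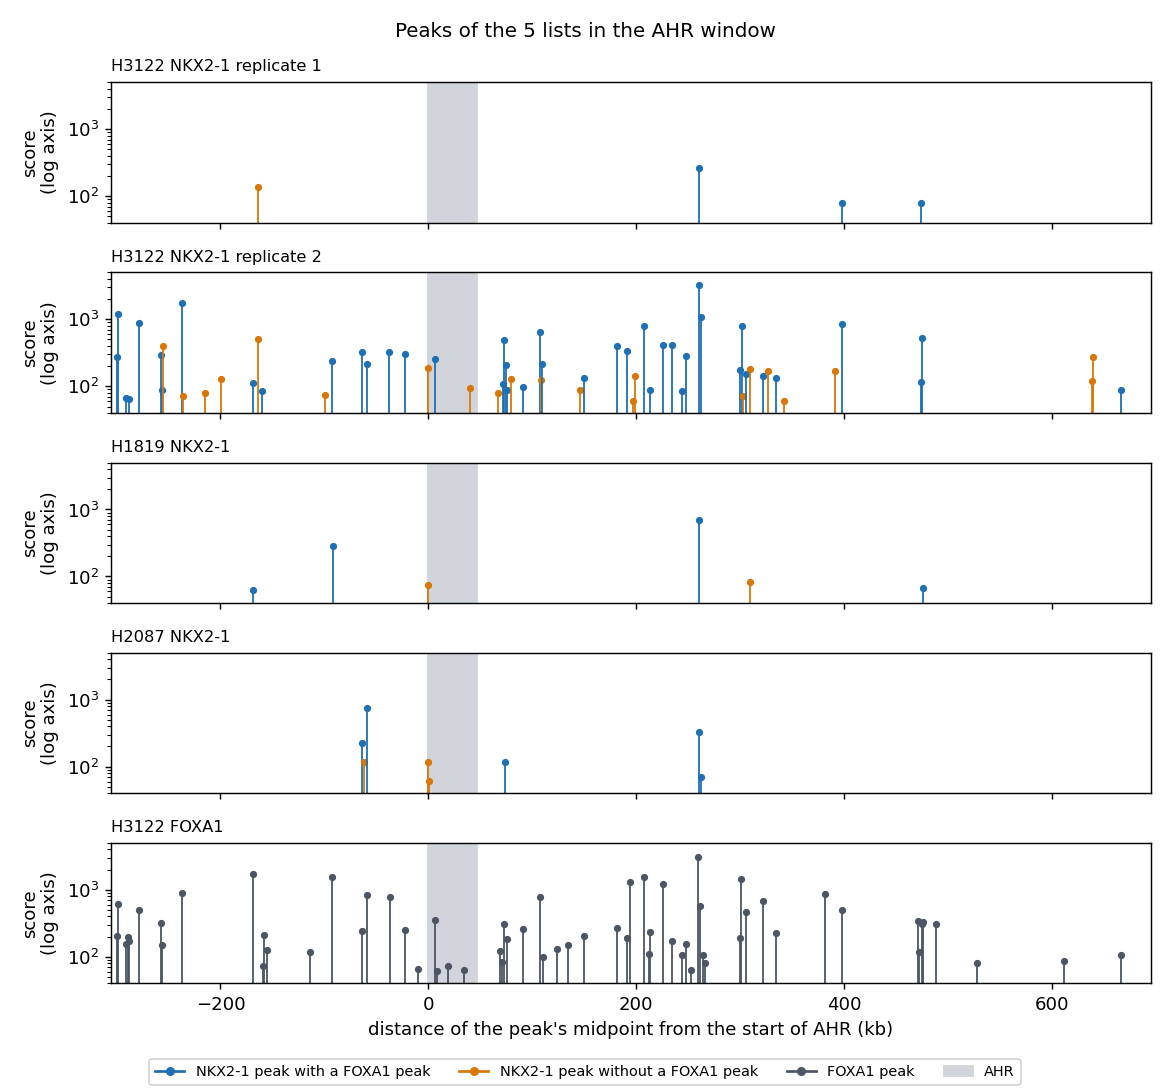
Score of every peak in the window (y axis, log scale) by the distance of its midpoint from the start of AHR in kb (x axis), with 1 panel for each of the 5 lists; the gene is shaded and colours give overlap with FOXA1. The tallest line in replicate 1, replicate 2, H1819 and FOXA1 stands at the same place, beyond the gene, where H2087 also has a peak, and the long lists of H3122 have 64 peaks each.

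The 2 long H3122 lists were the dense ones in the whole window. Replicate 2 and FOXA1 each had 64 peaks, which was 4.10 and 4.65 times the mean density of their lists. Replicate 1 had 4 peaks, H1819 6 and H2087 8, at 1.65, 1.37 and 1.71 times the mean. Among 3091 stretches of 1 Mb in the genome, 2 held more replicate 2 peaks and 2 more FOXA1 peaks. More peaks were held by 546 stretches in replicate 1, 771 in H1819 and 635 in H2087. Cutting every list to its 7469 highest scores left 16 peaks of replicate 2 and 18 of FOXA1, at 6.60 and 7.42 times the mean, against 4, 2 and 3 in replicate 1, H1819 and H2087. In that selection neither long list had a peak in the gene.

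The density of the H3122 peaks was not even along the window. In bins of 100 kb, replicate 2 had 11 peaks at 17 to 17.1 Mb, 10 at 17.3 to 17.4, 10 at 17.5 to 17.6 and 10 at 17.6 to 17.7, where its list averaged 1.56. FOXA1 had most at 17.5 to 17.6 Mb, with 12 against an average of 1.38. From 17781051 to 17943628 replicate 2 had no peak over 163 kb, while its median gap was 6.75 kb in the window and 21.9 kb in the whole list. FOXA1 had 3 peaks in that gap, of scores 314.08, 80.91 and 87.83. The 1 Mb before the window held 49 replicate 2 peaks, 53 FOXA1 peaks and 24 H1819 peaks, and the 1 Mb after it held 36, 46 and 5. Replicate 1 had 5 peaks before, 4 in and 2 after the window, and H2087 had 9, 8 and 1. Replicate 1, H1819 and H2087 thus had more peaks in the 1 Mb before the window than in it, by 1 peak in replicate 1 and in H2087. At the lower border the first replicate 2 peak inside began at 17004631 with a score of 277.39. The last one outside ended at 16997729 with a score of 672.42, on a FOXA1 peak of score 2730.92. At the upper border the last inside scored 88.36 and the first outside 174.52.

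**Figure D3:**
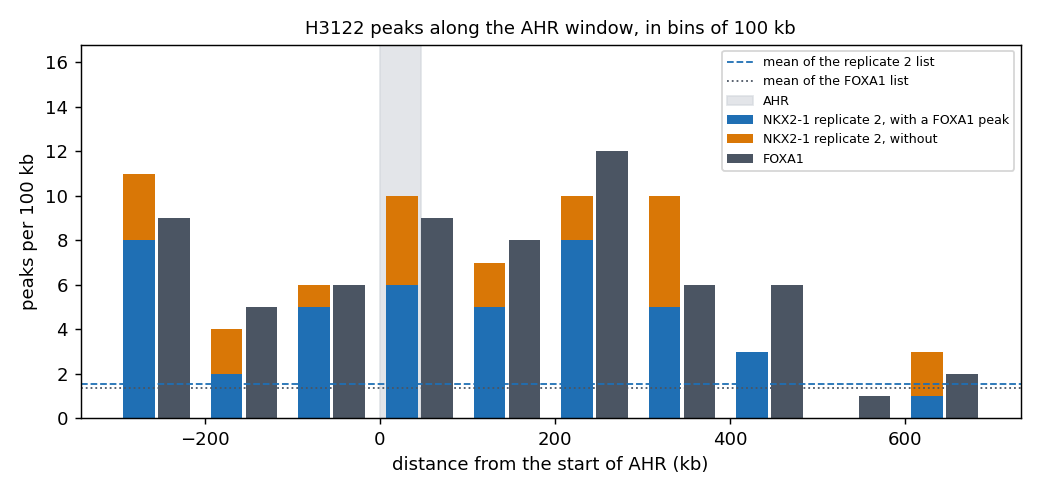
Peaks per 100 kb (y axis) of H3122 NKX2-1 replicate 2, split by overlap with FOXA1, and of FOXA1, by distance from the start of AHR in kb (x axis); dashed and dotted lines are the means of the 2 lists, 1.56 and 1.38. Both lists are above their means from the lower border to the bin at 17.7 to 17.8 Mb, and replicate 2 falls to 0 in the next bin.

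Most NKX2-1 peaks of the window lay on a FOXA1 peak in each list. In replicate 2 it was 43 of 64, or 67.2% (95% Wilson interval 55.0 to 77.4), where the whole list had 47.8%. In replicate 1 it was 3 of 4 (30.1 to 95.4%), with 50.3% over the list. FOXA1 was not mapped in the other lines, and for them the H3122 FOXA1 peaks were used. By these, 4 of 6 H1819 peaks (30.0 to 90.3%) and 5 of 8 H2087 peaks (30.6 to 86.3%) lay on FOXA1, against 28.7% and 31.6% of their lists. Intervals cover counting error only, and peaks are not replicates. Conversely, 42 of 64 FOXA1 peaks (65.6%, 53.4 to 76.1) lay on a replicate 2 peak, against 54.5% of the FOXA1 list. The other 22 FOXA1 peaks had no NKX2-1 peak in any of the 3 lines. The window was chosen for its many H3122 peaks of both factors, so the whole-list shares are background to a description, and nothing is read from the difference.

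**Figure D4:**
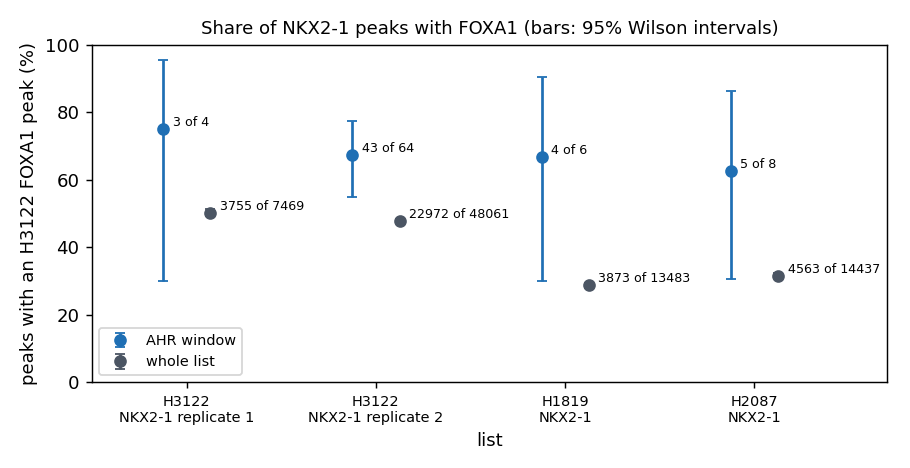
Share of NKX2-1 peaks with an H3122 FOXA1 peak (y axis, %) in the AHR window and in the whole list, for each of the 4 NKX2-1 lists (x axis); points are shares, bars 95% Wilson intervals and labels the counts. The counts behind the window's shares are 3 of 4, 43 of 64, 4 of 6 and 5 of 8, and the window was chosen for its dense H3122 peaks, so the whole-list values stand beside them as a description.

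The gene held too few peaks for this share to be compared with the share beyond it, and nothing is read from the overlap of the intervals. In replicate 2, 1 of 3 peaks in the gene had FOXA1 (6.15 to 79.2%), 15 of 21 before it (50.04 to 86.2%) and 27 of 40 after it (52.02 to 79.9%). In H2087 it was 0 of 1 in the gene and 5 of 7 beyond it, and H1819 and replicate 1 had no peak in the gene. The H1819 and H2087 peaks at the start of AHR counted as beyond the gene here, and the overlapping replicate 2 peak as in it. The 2 H1819 peaks without FOXA1 were the one at the start of AHR and one from 17614250 to 17614584 with a score of 83.22. The 3 H2087 peaks without FOXA1 were the pair at and just past the start and one from 17242690 to 17243344 with a score of 118.25, 61.7 kb before the gene. The last of these was the highest-scoring H2087 peak of the window with no other NKX2-1 list, and H1819 had no such peak.

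Peaks with FOXA1 had the higher median NKX2-1 score in replicate 2, H1819 and H2087, and the lower one in replicate 1. Median widths had the same order, at 773 bp with and 565 bp without FOXA1 in replicate 2, and 601 and 355 bp in H1819. They were 713 and 510 bp in H2087 and 319 and 395 bp in replicate 1. Whether the score differences go with width was not tested. In replicate 2 the median score was 254.12 for the 43 peaks with FOXA1 and 125.46 for the 21 without, and over the whole list it was 197 and 108. The medians with and without FOXA1 were 174 and 79.0 over 6 peaks in H1819 and 229 and 118 over 8 in H2087. In replicate 1 they were 79.46 for 3 peaks and 135.57 for 1. Of the 32 peaks above the window's median score, 27 had FOXA1, and of the 32 up to it 16 had. In the whole list the shares were 62.1% above and 33.5% up to the list's median. The strongest replicate 2 peak without FOXA1 ran from 17140803 to 17141881, 163 kb before AHR, with a score of 503.88, and was also found in replicate 1 with 135.57. The next lay from 17049211 to 17049780 with a score of 403.56 and from 17944308 to 17944780 with 277.91, and neither had a peak in another list.

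Some strong FOXA1 peaks had no NKX2-1 peak. The highest ran from 17498405 to 17499392, 146 kb past the end of AHR, with a FOXA1 score of 1320.62, at percentile 96.9 of the list. The others were at 17686405 to 17687631 with 854.2 and at 17775745 to 17776368 with 343.64. Where both factors had peaks in H3122, the midpoints were a median of 82.5 bp apart over 43 pairs, against 74.5 bp over the 22972 pairs of the whole lists. The scores of these 43 pairs had a Spearman correlation of 0.64, and those of all pairs one of 0.32. The pairs are sites of the same 2 libraries and share their depth, and 1 FOXA1 peak was paired 2 times, so the correlations are descriptions across sites. The order was far from fixed: FOXA1 scored 1696.36 at 17136223 to 17137007, second in the window, where replicate 2 scored 112.57.

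**Figure D5:**
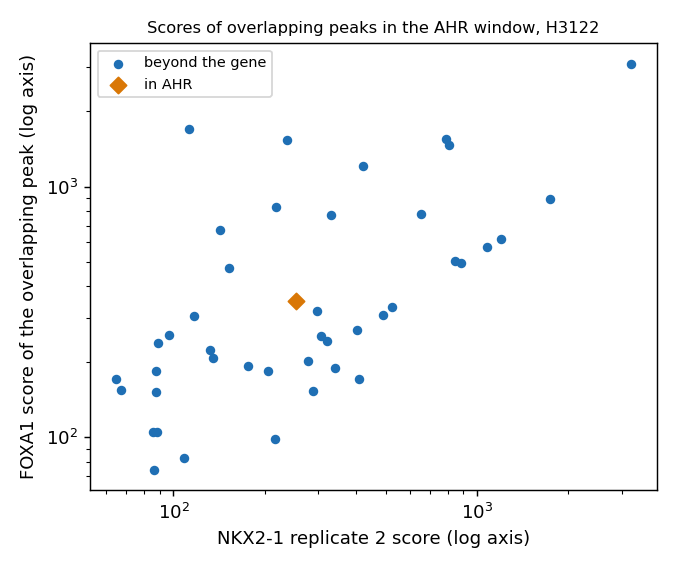
NKX2-1 replicate 2 score (x axis, log scale) and FOXA1 score (y axis, log scale) of the 43 overlapping pairs of peaks in the AHR window; the diamond is the pair inside AHR. The pair at the upper right, with scores of 3209.9 and 3100, is the region with a peak in every list.

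The peaks of the other lines fell mostly where H3122 replicate 2 had one. All 6 H1819 peaks and 6 of 8 H2087 peaks overlapped a replicate 2 peak, against 53.4% and 67.7% of those lists. All 4 replicate 1 peaks did, against 81.7%. A replicate 1 peak was overlapped by 1 of 6 H1819 peaks and 1 of 8 H2087 peaks, against 13.9% and 15.1% of those lists. H1819 and H2087 coincided with each other only at the start of AHR and at the region 212 kb past its end. These were 2 of 6 H1819 peaks, with 22.8% over the list, and 2 of 8 H2087 peaks, with 21.0%. The window was chosen for its many replicate 2 peaks, so nothing is read from the overlaps with that list, and the counts are small throughout. Elsewhere in the window no H1819 peak overlapped an H2087 peak.

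H1819 had its second peak of the window from 17212522 to 17213224, 91.8 kb before AHR, with a score of 280.48. Replicate 2 scored 237.19 there and FOXA1 1542.9, at rank 4 of its peaks in the window. H1819 peaks with FOXA1 also lay at 17136469 to 17136821, with a score of 62.78, and at 17780516 to 17781014, with 67.64. H2087 had its highest peak of the window from 17245632 to 17246837, 58.2 kb before AHR, with a score of 753.85 at percentile 91.7 of its list. Replicate 2 scored 217.08 at that place and FOXA1 833.7, and H1819 and replicate 1 had no peak. Its neighbours in H2087 began at 17240578, with a score of 229.15 and FOXA1 beneath it, and at 17242690. A last H2087 peak, from 17378268 to 17378784, scored 116.35 and lay 26.3 kb past the end of AHR on a FOXA1 peak of score 308.23. Replicate 1 had its remaining peaks at 17702661 to 17702979 and 17779487 to 17779683, with scores of 79.2 and 79.46, both on FOXA1.

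When the peaks of all 5 lists were merged, the window held 87 regions, of which 22 had FOXA1 alone. Of the others, 52 had a peak in 1 NKX2-1 list, 11 in 2, 1 in 3 and 1 in all 4. The 2 H3122 replicates count as separate lists here, so 2 lists need not mean 2 lines. Among the 11, 2 regions after the gene and 1 before it had NKX2-1 peaks in the H3122 replicates only. Among the 52, H2087 alone had 1 region before the gene and 1 in it, and the rest were of replicate 2. FOXA1 was present in 32 of the 52, in 9 of the 11 and in the region of all 4. Regions were merged in this window only, so these counts have no share over the genome beside them. Nothing is read from how they differ. The region in 3 lists, at the start of AHR, had no FOXA1 peak.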

How the data were processed

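ChIP-seq peak lists of 5 precipitated libraries were used, 1 per library per the labels; the 4 input libraries were not analysed here. The submitters' processing notes name Bowtie, the build hg18 and MACS 1.4.0, a peak caller. No source used here gives the control library or calling threshold behind each list, and the lists did not all end at the same lowest score. The lists hold positions and a deposited score per peak, the authors' own value, and its scale is not stated. Peaks were ranked by it only within a list. The highest and lowest scores of the lists were set side by side, and 1 alternative applied a score limit of 100 to every list. These uses assume a like scale, which was not checked. List starts were raised by 1 to count from 1.

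Peaks on sequence without a position were left out. A peak belonged to the window or the gene if it touched it, and peaks were shared at an overlap of at least 1 bp. Mean densities used the hg18 chromosome lengths in circlize 0.4.16 (R 4.3.3). Wilson intervals at 95% came from statsmodels 0.14.6, run with Python 3.11.15, numpy 2.4.6, pandas 2.3.3, scipy 1.17.1 and matplotlib 3.10.9. Overlap counting and merging were tested on simulated peaks. Read depth is unknown, so no precision per peak can be given.

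The window, the gene interval and the rules were chosen with earlier results of these data known. Named regions were those in the gene or the 10 kb before it, those in all 4 NKX2-1 lists, the 3 highest of replicate 2 without FOXA1, the 3 highest of FOXA1 without H3122 NKX2-1, the highest found in H1819 or H2087 alone, and those at the borders; other named peaks were chosen after their values were seen. Counts near other genes of the AHR pathway were not made, since no hg18 annotation was used here. Alternatives changed the score limit, list length, borders, gene interval, overlap, merging and the lists standing for H3122.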

Additional observations from a re-analysis of the deposited data

How the results depend on the processing

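Of 98 alternatives over 22 results, 79 left the value within its interval or within 1.5 times, 19 moved it and 0 reversed it. The results were counts, shares and medians, which cannot change sign, so the 0 carries no information. The order of the replicate 2 densities in and beside the gene, which did change, was not among them. Most results rest on so few peaks that this says little about stability. Scores of at least 100 left 2 peaks per Mb in replicate 1, 2 in H1819, 0 peaks in the gene in H2087 and 1 for FOXA1. Lists of equal length left 16 peaks per Mb in replicate 2, 2 in H1819, 3 in H2087 and 18 for FOXA1, and 0 in the gene in replicate 2, H2087 and FOXA1. The share of H1819 peaks with FOXA1 was 100% (2 of 2) under both. Widening the window by 500 kb at each end gave 13.5 H1819 peaks per Mb. Extending the gene by 10 kb gave 1 peak in it for H1819 and 2 for H2087. Regions in every line numbered 1 when H3122 was counted only where both replicates had a peak. Leaving out replicate 1 gave 2, the second being the region at the start of AHR, and leaving out replicate 2 gave 1. No paired analysis was possible because no test was run and the replicate numbers shared by the H3122 NKX2-1 and input libraries join lists to libraries that were not analysed here.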
